A study of Mus musculus with 6 samples.

Results

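The genes of the microtubule motors, the kinesins, cytoplasmic dynein and its partner dynactin, were followed in retinal ganglion cells of the mouse at 3 ages. Members were the genes whose symbol in the deposited table began with Kif followed by a digit or c, with Klc and a digit, or with Dync, Dynl or Dctn. This took 57 of 17027 gene symbols, and 225 of 50829 isoforms. The embryonic day 18 (E18), postnatal day 5 (P5) and 8-week (Adult) groups held 2 libraries each, all from wild-type (WT) C57/6NCrl mice with no treatment named in the labels. Cells were taken with an antibody to the surface protein Thy1 after other retinal cells (macrophages, and also amacrine cells in the sample notes) had been panned away. PolyA RNA was sequenced as paired reads of 100 bases, and the deposited values are FPKM, fragments scaled by transcript length and library size. FPKM is normalised for transcript length, so levels can be set beside each other between genes, but it does not give the depth of a library. Nothing in the labels ties a library to its own animal or to a pool, so the p-values below measure only the spread between these samples. Each retinal ganglion cell sends an axon to the brain, and the libraries are bulk RNA, in which fewer cells of a type and less RNA per cell cannot be told apart.

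Kinesins and dynein walk along microtubules and use ATP to do so. In an axon most kinesins carry cargo outward to the terminals, and cytoplasmic dynein 1 with dynactin carries endosomes, autophagosomes and trophic signals back to the cell body. Another group of kinesins builds the spindle, moves chromosomes and completes cell division, and is mostly low in postmitotic neurons. The members were therefore set out by role. The 35 axonal transport motors were 3 kinesin-1 heavy chains, 4 kinesin light chains, 4 kinesin-2 genes, 6 kinesin-3 genes, 5 dynein 1 chains, 7 dynein light chains and 6 dynactin subunits. The mitotic kinesins had 9 members. The remaining 13 were 9 other kinesins, 2 dynein 2 chains of the cilium, and Dynlt1 with the pseudogene Dynlt1-ps1. Kif2b, Kif11, Kif14, Kif18b and Kif20b of the mitotic family were not among the symbols found by the rule and were not analysed here. The mitotic class and its sums therefore cover only the 9 that were found.

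RefSeq promoter windows (GRCm38.p6, 250 bases before to 50 after a start) were at hand for 39 of the 57 members. The first 3 sequences are those of mitotic kinesins, shown because most windows of this class held a short motif known from cell cycle genes. The Kif2c window lies inside the annotated gene, whose 5′ end is at 117182639. It therefore belongs to a start downstream of that end. Capitals mark the cell cycle gene homology region, searched as TTTGAA on both strands, and the CCAAT box, searched as CCAAT on both strands. All are printed 5′ to 3′ on the strand of the gene.
Kif2c, chr4:117178723-117179022, minus strand: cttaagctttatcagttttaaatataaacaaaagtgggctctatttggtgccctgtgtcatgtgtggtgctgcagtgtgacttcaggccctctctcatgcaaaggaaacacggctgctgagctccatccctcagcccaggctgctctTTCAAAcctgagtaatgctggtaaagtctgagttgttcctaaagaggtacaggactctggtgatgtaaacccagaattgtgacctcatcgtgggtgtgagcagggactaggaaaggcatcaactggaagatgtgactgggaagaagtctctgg
Kif4, chrX:100625815-100626114, plus strand: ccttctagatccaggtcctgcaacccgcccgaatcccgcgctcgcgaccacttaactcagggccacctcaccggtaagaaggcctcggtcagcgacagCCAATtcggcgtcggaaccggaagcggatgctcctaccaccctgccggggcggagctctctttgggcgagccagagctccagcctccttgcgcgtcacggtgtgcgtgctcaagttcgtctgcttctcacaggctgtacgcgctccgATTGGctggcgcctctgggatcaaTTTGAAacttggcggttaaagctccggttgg
Kif23, chr9:61946750-61947049, minus strand: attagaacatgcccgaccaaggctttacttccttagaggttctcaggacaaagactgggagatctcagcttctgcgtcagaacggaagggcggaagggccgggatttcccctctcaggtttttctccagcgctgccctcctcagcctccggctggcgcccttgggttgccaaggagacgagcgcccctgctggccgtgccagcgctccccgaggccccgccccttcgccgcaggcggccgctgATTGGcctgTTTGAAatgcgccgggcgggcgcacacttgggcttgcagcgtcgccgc
The TTTGAA letters were in the window of 7 of 8 mitotic kinesins, against 2 of 26 axonal transport genes and 20.2% of all 27025 genes with a window. CCAAT was in 5 of 8 mitotic kinesins, against 11 of 26 axonal transport genes and 41.1% of all genes. Such a match describes letters in a window and is not evidence that a factor binds there. The next 4 windows belong to the genes on which the transport results turn, a pair of dynein intermediate chains that moved in opposite directions (with both RefSeq starts of Dync1i2) and the light chain Klc3. Neither Dync1i1 nor Dync1i2 held any of the motifs searched, and Klc3 held a CCAAT box.
Dync1i1, chr6:5725389-5725688, plus strand: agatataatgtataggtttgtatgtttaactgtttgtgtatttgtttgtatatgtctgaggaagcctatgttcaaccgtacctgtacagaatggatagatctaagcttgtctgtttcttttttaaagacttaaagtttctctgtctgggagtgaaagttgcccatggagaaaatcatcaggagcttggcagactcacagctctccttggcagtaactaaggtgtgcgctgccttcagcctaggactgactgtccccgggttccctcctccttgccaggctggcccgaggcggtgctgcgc
Dync1i2, chr2:71211456-71211755, plus strand: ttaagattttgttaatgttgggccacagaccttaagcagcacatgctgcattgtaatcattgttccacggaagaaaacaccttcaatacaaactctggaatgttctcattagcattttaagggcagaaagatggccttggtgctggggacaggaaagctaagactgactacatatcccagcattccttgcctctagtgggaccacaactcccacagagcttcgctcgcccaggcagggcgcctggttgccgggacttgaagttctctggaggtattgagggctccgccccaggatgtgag
Dync1i2, chr2:71211696-71211995, plus strand: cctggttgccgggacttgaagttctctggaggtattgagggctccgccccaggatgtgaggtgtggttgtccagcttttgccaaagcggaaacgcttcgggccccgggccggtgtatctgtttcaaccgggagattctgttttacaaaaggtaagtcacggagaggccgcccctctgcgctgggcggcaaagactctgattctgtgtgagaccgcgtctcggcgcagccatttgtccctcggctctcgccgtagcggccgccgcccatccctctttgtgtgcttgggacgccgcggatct
Klc3, chr7:19404055-19404354, minus strand: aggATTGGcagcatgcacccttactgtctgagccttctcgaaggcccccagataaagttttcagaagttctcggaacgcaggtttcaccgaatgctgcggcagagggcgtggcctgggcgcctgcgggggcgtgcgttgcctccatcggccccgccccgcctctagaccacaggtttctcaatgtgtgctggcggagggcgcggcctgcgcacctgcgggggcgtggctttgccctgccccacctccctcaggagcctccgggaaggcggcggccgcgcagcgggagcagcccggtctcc
A motif bound by the photoreceptor factor CRX, searched as TAATCC on both strands, was in 0 of 8 mitotic windows, against 2 of 26 axonal transport genes and 8.14% of all genes. No match says only that these letters are not in the window.

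The libraries carried their label at E18 and P5 and less clearly in the Adult. Of 13 ganglion cell markers 12 were in the table, and their summed level was 3308 and 3715 FPKM at E18, 3848 and 3507 by P5, and 513 and 329 FPKM in the Adult. The 12 rod photoreceptor markers summed to at most 3.30 FPKM at E18 and P5 but to 6072 and 732 FPKM in the Adult replicates 1 and 2, and each of the 12 was higher in replicate 1. Glial markers summed to 156 to 197 FPKM at the younger ages, and to 1125 and 1296 FPKM in the Adult. Amacrine markers summed to 627 to 997 FPKM at the younger ages, and to 1314 and 1602 FPKM in the Adult. Bipolar markers summed to at most 17.7 FPKM before the Adult, and to 115 and 128 FPKM there. The 17 cell cycle and progenitor markers were all higher in E18 replicate 1 than in replicate 2, with sums of 223 and 80.6 FPKM. The table lists only isoforms that reach 1 FPKM in at least 1 library. Mki67, Ccnb1, Cdk1, Mcm3 and Fgf15 reached it in E18 replicate 1 alone, so their order was fixed by that filter and is no finding. Every comparison with the Adult therefore also compares libraries of different cell makeup, and its part in the motor results was not tested.

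In outline, the transport motors held their level between E18 and P5 and were lower in the Adult. The 35 axonal genes summed to 2701 and 2961 FPKM at E18, 2907 and 2805 by P5, and 1522 and 1456 FPKM in the Adult. The Adult libraries lay below all 4 others. Of the 35 genes, 26 had an Adult mean below both other means and 6 an Adult mean above both. The 6 above were Dync1i1, Dynll2, Dynlt3, Kif13b, Kif16b and Klc3. Among them Dync1i1, the neuronal dynein intermediate chain, reached the level of its paralog Dync1i2.

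Tests were made with limma on log2(FPKM + 1) over all 14390 genes with a mean of at least 1 FPKM, and a gene was called at a Benjamini-Hochberg adjusted p under 0.05. Of the 57 members 49 passed that filter, and the other 8 were 7 mitotic kinesins and Kif19a. In P5 against E18, 10.5% of all genes tested were called, 5.52% higher and 4.95% lower. Of the 49 members 3 rose (Dync1i1, Dynlt3 and Kif5b) and 1 fell (Klc4), a share near that background. Their median log2 change was 0.03, beside -0.03 over all genes. An unadjusted p under 0.05 was reached by 12 members, beside 29.4% of all genes, so their share was not above that background. None of the 4 calls held in every fit that left out 1 library. Without E18 replicate 1 no member was called.

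In Adult against P5, 59.8% of all genes were called, 26.2% higher and 33.7% lower. Of the 49 members 6 rose (12.2%) and 25 fell (51.0%), and their median log2 change was -0.70, beside -0.07 over all genes. Among the 35 axonal genes 4 rose and 21 fell, with a median of -0.82. In Adult against E18 59.7% of all genes were called, 25.3% higher and 34.4% lower, and 5 members rose and 30 fell, with a median of -0.62 beside -0.11. Both Adult contrasts share the Adult libraries and so are not independent of each other. Library ranges did not overlap for 43 of the 49 members in Adult against P5 (78.7% of all genes), for 42 in Adult against E18 (84.1%), and for 29 in P5 against E18 (63.2% of all genes). Leaving out Adult replicate 1, the library richest in rod transcripts, gave 5 risen and 25 fallen members against P5, and leaving out replicate 2 gave 6 and 23.

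The split between risen and fallen members depended on how the libraries were scaled, since the deposited FPKM summed to between 485423 and 854713 per library. After rescaling to TPM, which moved the median of all genes to -0.76 in Adult against P5, 3 members rose and 39 fell. After scaling to equal summed FPKM of protein-coding genes, which moved that median to 0.21, 9 rose and 24 fell. In Adult against E18 the split was 3 and 37 with TPM, 13 and 21 with the protein-coding scaling, and 9 and 24 after quantile normalisation. The median of all genes in that contrast was -0.68, 0.21 and -0.09 in the same order. The share of all genes called under each of these scalings was not computed. These counts therefore have no background and cannot be read as particular to the motors. Relative to the median of all genes, the median of the members in Adult against P5 was -0.63 as deposited, -0.66 with TPM, -0.60 with the protein-coding scaling and -0.44 after quantile normalisation. Of the 35 axonal genes 20 were higher in Adult replicate 1 than in replicate 2. That share was not computed over all genes, so this count has no background either.

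**Figure D1:**
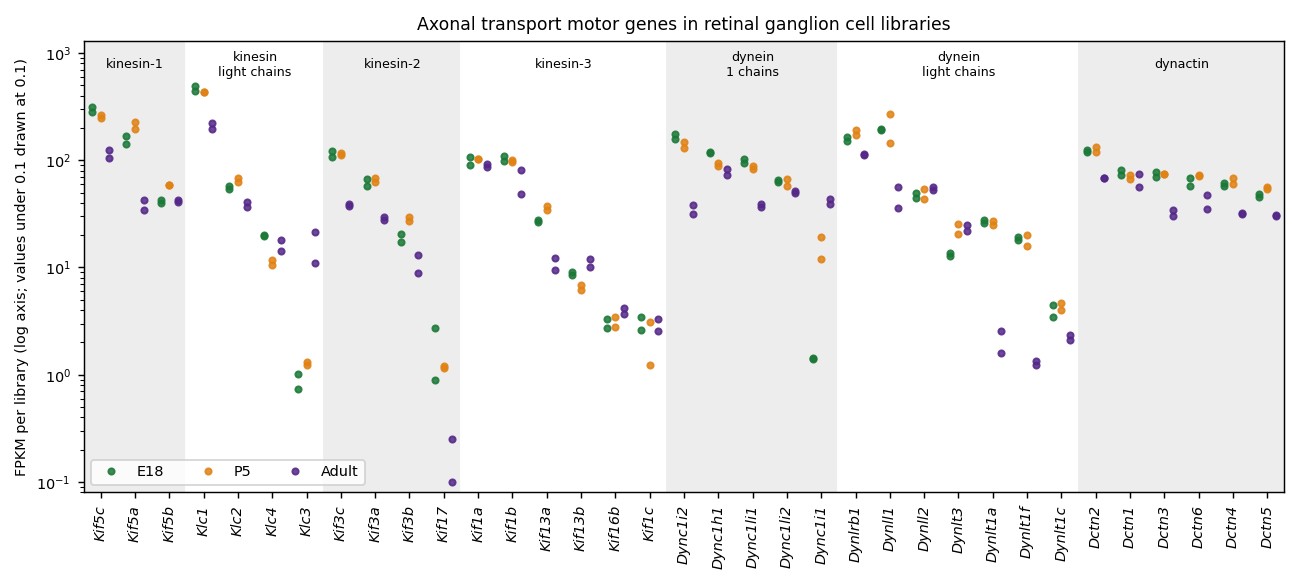
FPKM of the 35 axonal transport genes on a log axis, 1 point per library (2 for each age), grouped by role and ordered by mean level within a role. The Adult points lie lowest for most genes, and highest for Dync1i1 and Klc3.

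Kinesin-1, the founding motor of fast axonal transport, has the neuronal heavy chains Kif5c and Kif5a, and Kif5b, which is made by nearly all cells. Kif5c was the most abundant in every library. Kif5c had 281 and 312 FPKM at E18, 250 and 263 by P5, and 105 and 124 FPKM in the Adult. Kif5a had 141 and 170 FPKM at E18, 197 and 226 by P5, and 42.8 and 34.5 FPKM in the Adult. For both genes the Adult libraries lay far below all others. In Adult against P5, Kif5a fell by 2.43 on the log2 scale (SE 0.15, limma adjusted p = 8.8e-05) and Kif5c by 1.16 (SE 0.12, adjusted p = 0.00041). Kif5b had 40.0 and 42.3 FPKM at E18, 59.2 and 58.5 by P5, and 42.1 and 40.8 FPKM in the Adult, so that P5 stood above both other ages without overlap. Its rise in P5 against E18 was 0.51 (SE 0.09, limma adjusted p = 0.027). That call was lost in each of the 6 fits that left out 1 library, with an adjusted p of up to 0.212. Its fall of 0.50 in Adult against P5 (adjusted p = 0.0045) held in all 6 of those fits, but not after protein-coding or quantile scaling, where the values were as small as -0.17.

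A share within one library does not depend on the scaling of that library. Kif5b made up 8.66 and 8.07% of kinesin-1 heavy chain FPKM at E18, 11.7 and 10.7% by P5, and 22.2 and 20.5% in the Adult. Kif5a made up 30.6 and 32.4% at E18, 38.9 and 41.3% by P5, and 22.6 and 17.3% in the Adult. The ubiquitous chain thus took a larger share of kinesin-1 in the Adult libraries than in any other library. With 2 libraries against 2, an exact permutation test of such shares cannot go below p = 0.333.

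The kinesin light chains couple kinesin-1 to its cargo. Klc1, the neuronal light chain, was the most abundant member of all, with 443 and 493 FPKM at E18, 431 and 433 by P5, and 197 and 220 FPKM in the Adult. It fell by 1.05 in Adult against P5 (SE 0.11, limma adjusted p = 0.00040), and Klc2 fell by 0.75 (SE 0.11, adjusted p = 0.0015). Klc3, best known from the sperm tail, ran the other way. It had 1.02 and 0.73 FPKM at E18, 1.24 and 1.30 by P5, and 21.3 and 10.9 FPKM in the Adult replicates 1 and 2. Its rise of 2.85 in Adult against P5 (SE 0.30, limma adjusted p = 0.00045) was the largest among the tested members in that contrast. It was 1.94 times higher in the rod-rich Adult replicate 1 than in replicate 2, and without replicate 1 the rise was 2.40 (adjusted p = 0.0014). Klc4 had 19.8 and 20.0 FPKM at E18, 11.8 and 10.7 by P5, and 18.1 and 14.4 FPKM in the Adult. Its fall of 0.78 in P5 against E18 (limma adjusted p = 0.027) was lost in each fit without 1 of the E18 or P5 libraries, with an adjusted p of up to 0.204. Its rise of 0.49 in Adult against P5 (adjusted p = 0.025) was lost in 4 of the 6 fits without 1 library, and with TPM the value was -0.22.

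Kinesin-2 moves membranes along axons and particles along cilia as a trimer of Kif3a, Kif3b or Kif3c and an adaptor, and Kif17 acts as a pair of identical chains. Kif3c, the variant enriched in neurons, had 106 and 123 FPKM at E18, 113 and 117 by P5, and 37.0 and 38.8 FPKM in the Adult. Kif3a had 58.0 and 66.7 FPKM at E18, 68.4 and 62.9 by P5, and 27.7 and 29.6 FPKM in the Adult. In both, E18 and P5 overlapped and the Adult lay below. In Adult against P5, Kif3c fell by 1.58 (SE 0.11, limma adjusted p = 0.00011), Kif3a by 1.17 (SE 0.11, adjusted p = 0.00034) and Kif3b by 1.31 (SE 0.19, adjusted p = 0.0016). Kif17 is listed with 1 isoform only, which is unannotated. It had 0.89 and 2.71 FPKM at E18 and 1.19 and 1.15 FPKM by P5. In the Adult it was listed at 0 and at 0.25 FPKM. Its change in Adult against P5 was -0.96 (adjusted p = 0.051), which did not pass the threshold. No kinesin-2 gene rose in either Adult contrast under any of the 4 scalings.

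Of the 6 kinesin-3 genes 1 rose and 1 fell in Adult against P5. Kif1a, which carries synaptic vesicle precursors, had 91.2 and 107 FPKM at E18, 103 and 103 by P5, and 87.3 and 91.4 FPKM in the Adult. Its log2 change in Adult against P5 was -0.20 (95% interval -0.46 to 0.06), and it was 0.12 and 0.18 after protein-coding and quantile scaling and -0.95 with TPM. Kif1b, a carrier of mitochondria and synaptic vesicle precursors, had 97.4 and 109 FPKM at E18, 95.4 and 99.9 by P5, and 80.7 and 48.6 FPKM in the Adult. Its 2 Adult libraries differed 1.66-fold, and its change in Adult against P5 was -0.63 (limma adjusted p = 0.050, not called). Kif13a, an endosomal motor, had 26.5 and 27.5 FPKM at E18, 34.6 and 37.2 by P5, and 12.2 and 9.38 FPKM in the Adult, a fall of 1.66 against P5 (SE 0.14, adjusted p = 0.00022). Its paralog Kif13b had 8.99 and 8.53 FPKM at E18, 6.11 and 6.93 by P5, and 10.1 and 11.9 FPKM in the Adult, a rise of 0.67 against P5 (SE 0.14, adjusted p = 0.0067). With TPM that rise was gone, at -0.0025. Within each library Kif13b made up 25.3 and 23.7% of the pair at E18, 15.0 and 15.7% by P5, and 45.2 and 55.9% in the Adult. Kif16b, a motor of early endosomes, and Kif1c stayed below 4.2 FPKM in all libraries and were not called in any contrast.

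**Figure D2:**
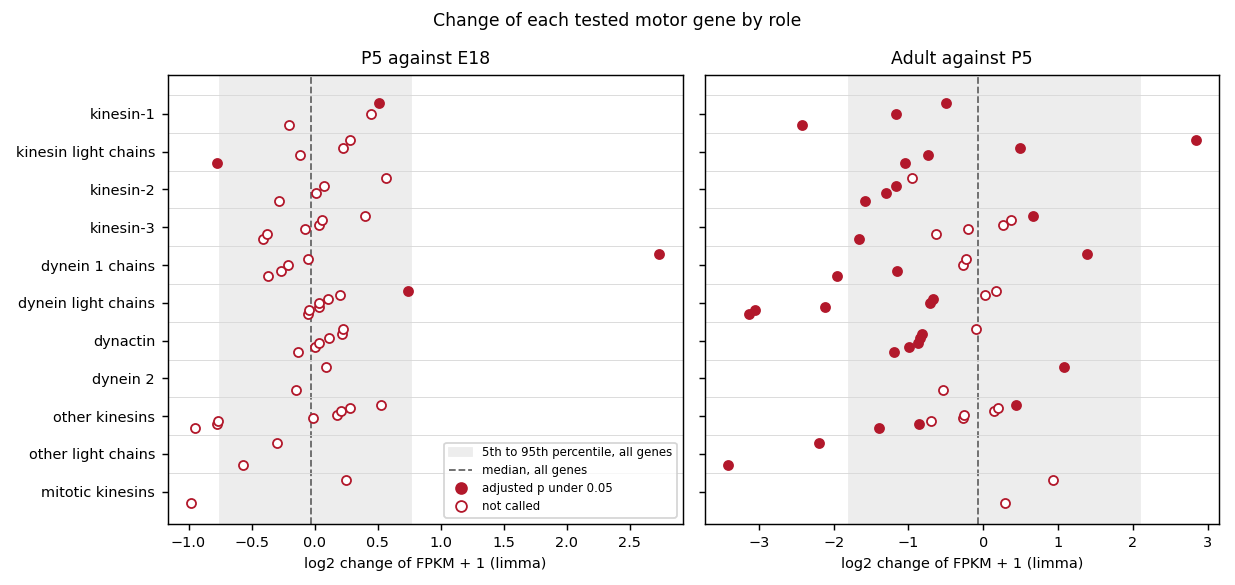
Log2 change of FPKM + 1 for the 49 tested members, P5 against E18 on the left and Adult against P5 on the right, 1 row per role. Filled points passed an adjusted p under 0.05 (limma), the grey band spans the 5th to 95th percentile of all genes and the dashed line is their median. On the right most transport genes lie left of the median, with Dync1i1 and Klc3 far to the right.

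Cytoplasmic dynein 1 is built on a pair of heavy chains, Dync1h1, which hold intermediate chains, light intermediate chains and light chains. The intermediate chains, which bind dynactin, changed places. Dync1i1 (chr6:5725639-6028039 in mm10), the form enriched in neurons, had 1.42 and 1.44 FPKM at E18, 19.1 and 12.0 by P5, and 43.7 and 39.4 FPKM in the Adult. Dync1i2 (chr2:71211706-71263303), the form made by most cells, had 158 and 177 FPKM at E18, 148 and 130 by P5, and 38.5 and 31.6 FPKM in the Adult. The 3 ages did not overlap for either gene. Dync1i1 rose by 2.73 in P5 against E18 (SE 0.21, limma adjusted p = 0.0053) and by 1.39 in Adult against P5 (SE 0.21, adjusted p = 0.0020). The first of these was lost without E18 replicate 1 (adjusted p = 0.067), with the change itself at 2.73. Dync1i2 fell by 1.96 in Adult against P5 (SE 0.14, adjusted p = 0.00012), and by 0.27 in P5 against E18, which did not pass the threshold (adjusted p = 0.24).

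Dync1i1 was 0.89 and 0.81% of intermediate chain FPKM at E18, 11.4 and 8.47% by P5, and 53.2 and 55.5% in the Adult. The Adult share was close to even in both libraries. Without Adult replicate 1, Dync1i1 still rose by 1.32 in Adult against P5 (adjusted p = 0.025). Both directions kept their sign and their call under all 3 other scalings.

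**Figure D3:**
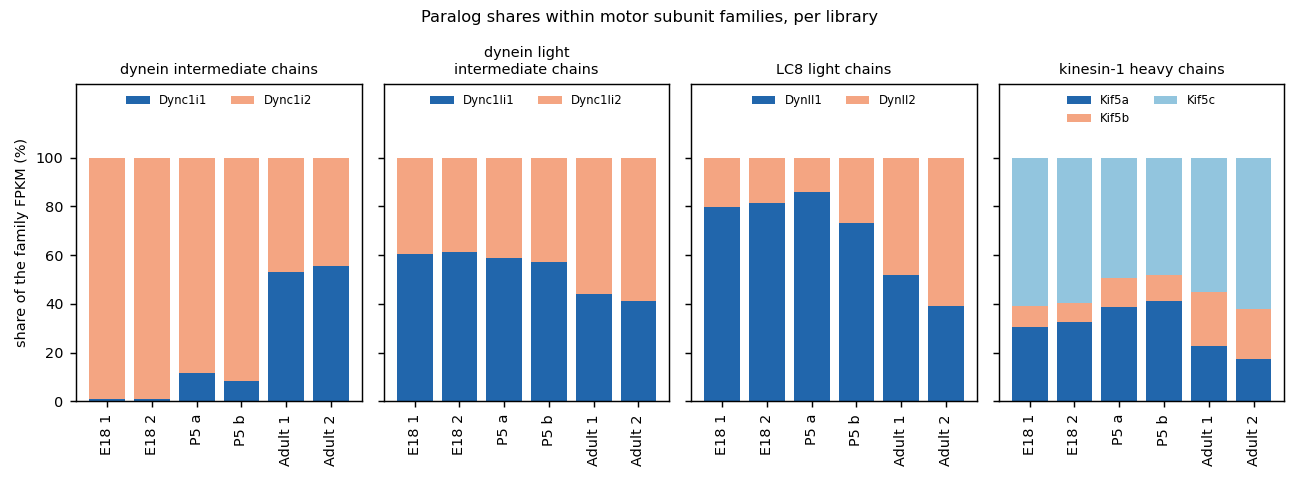
Share of family FPKM, in percent, taken by each paralog in each of the 6 libraries, for the dynein intermediate chains, dynein light intermediate chains, LC8 light chains and kinesin-1 heavy chains. Dync1i1 is under 1% in both E18 libraries and over 50% in both Adult libraries.

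The heavy chain Dync1h1 had 118 and 119 FPKM at E18, 88.0 and 94.7 by P5, and 73.0 and 82.9 FPKM in the Adult. It fell by 0.60 in Adult against E18 (SE 0.10, limma adjusted p = 0.0032), a call lost after protein-coding and quantile scaling. Of the light intermediate chains, which bind cargo adaptors, Dync1li1 had 93.9 and 104 FPKM at E18, 82.1 and 87.8 by P5, and 38.9 and 36.3 FPKM in the Adult, and fell by 1.16 in Adult against P5 (SE 0.10, adjusted p = 0.00025). Dync1li2 had 62.0 and 65.9 FPKM at E18, 57.5 and 66.3 by P5, and 49.6 and 52.1 FPKM in the Adult, and its change of -0.27 in the same contrast did not pass (adjusted p = 0.070). Dync1li2 was 39.8 and 38.9% of the pair at E18, 41.2 and 43.0% by P5, and 56.1 and 59.0% in the Adult, so it overtook Dync1li1.

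Among the dynein light chains, shares also shifted in the LC8 pair, small subunits shared with many other complexes. Of that pair only Dynll1 was called. Dynll1 had 194 and 193 FPKM at E18, 268 and 146 by P5, and 56.6 and 35.8 FPKM in the Adult. The P5 libraries differed widely from each other, and the Adult lay below all of them. It fell by 2.11 in Adult against P5 (SE 0.32, limma adjusted p = 0.0019). Dynll2 lay between 43.6 and 56.1 FPKM in all 6 libraries and was not called in any contrast, with a log2 change of 0.16 in Adult against P5 that was -0.58 with TPM. Its share of the pair was 20.4 and 18.8% at E18, 14.0 and 26.8% by P5, and 48.1 and 61.0% in the Adult. Dynlrb1, the roadblock chain, fell by 0.67 in Adult against P5 (SE 0.10, adjusted p = 0.0022), at 111 and 115 FPKM against 191 and 171 FPKM.

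Dynlt3, a Tctex-type chain on the X chromosome, had 12.9 and 13.6 FPKM at E18, 25.5 and 20.4 by P5, and 25.1 and 21.7 FPKM in the Adult. It rose by 0.74 in P5 against E18 (SE 0.15, limma adjusted p = 0.032), a call that was lost in 5 of the 6 fits without 1 library (adjusted p of up to 0.225). The other Tctex-type genes are near-identical copies. Dynlt1a, Dynlt1c and Dynlt1f lie close together on chromosome 17, and Dynlt1-ps1 is a processed pseudogene on chromosome 6, so the division of reads among them is uncertain. Summed over the 5 entries, they had 216 and 245 FPKM at E18, 210 and 172 by P5, and 16.4 and 24.5 FPKM in the Adult. The Adult sum lay far below every younger library, and each of the 5 fell in Adult against P5, by 0.72 (Dynlt1c) to 3.41 (Dynlt1-ps1). The Dynlt1c call was lost without P5 library b or Adult replicate 2 (adjusted p of up to 0.055).

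Dynactin links dynein to cargo and keeps it on the microtubule. Of its 6 subunits 5 fell in Adult against P5, by 0.82 (Dctn6) to 1.19 (Dctn3), and these 5 calls held under all 4 scalings and in every fit without 1 library. Dctn2, dynamitin, had 119 and 126 FPKM at E18, 133 and 119 by P5, and 67.8 and 68.9 FPKM in the Adult. Dctn3 had 70.2 and 77.8 FPKM at E18, 74.5 and 73.8 by P5, and 34.1 and 29.9 FPKM in the Adult. Dctn4 fell by 0.99 and Dctn5 by 0.84 in that contrast (SE 0.11 and 0.10, limma adjusted p = 0.00049 and 0.00059). The exception was Dctn1, the large subunit that grips the microtubule and the dynein intermediate chain. It had 72.3 and 80.2 FPKM at E18, 66.2 and 72.6 by P5, and 74.7 and 56.1 FPKM in the Adult, with all ages overlapping. Its change in Adult against P5 was -0.10 (95% interval -0.47 to 0.28), and it was 0.23 and 0.24 after protein-coding and quantile scaling and -0.85 with TPM. Dctn1 made up 17.1 and 17.4% of dynactin FPKM at E18, 14.3 and 15.8% by P5, and 26.1 and 22.3% in the Adult. No dynactin gene was called in P5 against E18.

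The mitotic kinesins were low in all libraries. The 9 genes summed to 20.6 and 12.0 FPKM at E18, 11.2 and 12.8 by P5, and 20.4 and 12.6 FPKM in the Adult, so the ages overlapped. Axonal transport genes summed to 131 and 246 times as much at E18, 260 and 220 times by P5, and 74.6 and 116 times in the Adult. Kif22, a chromosome-arm kinesin, and Kif15, a spindle kinesin, made up most of the mitotic sum. Kif22 had 8.04 and 4.94 FPKM at E18, 7.66 and 7.75 by P5, and 10.2 and 9.18 FPKM in the Adult. Kif15 had 3.42 and 4.56 FPKM at E18, 1.08 and 2.04 by P5, and 7.06 and 1.87 FPKM in the Adult replicates 1 and 2, a 3.78-fold difference between them. Rod markers summed to 6072 FPKM in replicate 1 and 732 FPKM in replicate 2, and their part in this was not tested. Both passed the filter and neither was called in any contrast, although the unadjusted p of Kif22 was under 0.05 in Adult against E18. Kif15 was called higher in Adult against P5 without Adult replicate 2 (1.68, limma adjusted p = 0.013), and Kif22 was called higher in Adult against E18 without E18 replicate 1 (0.84, adjusted p = 0.020).

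The other 7 mitotic kinesins averaged under 1 FPKM and were not tested. They were Kif4, a chromosome-bound kinesin, Kif23 and Kif20a, which act in cytokinesis, Kif2c, a microtubule depolymerase of the kinetochore, Kif18a, which aligns chromosomes, and the near-identical Kifc1 and Kifc5b, which cross-link spindle microtubules. Together they had 9.12 and 2.54 FPKM in E18 replicates 1 and 2, 2.44 and 2.98 by P5, and 3.16 and 1.53 FPKM in the Adult. Each of the 7 reached 1 FPKM in E18 replicate 1, and 1 of them (Kifc5b) also did so in another library. The deposited table holds isoforms that reach 1 FPKM in at least 1 library, so the other 6 are in the table through E18 replicate 1 alone. Kif4 had 1.52 and 0.13 FPKM at E18, 0.05 and 0.14 by P5, and 0.21 and 0.24 FPKM in the Adult. Kif23 had 1.01 and 0.14 FPKM at E18, was listed at 0 and at 0.06 FPKM at P5, and was listed at 0 in both Adult libraries. These values of Kif23 are those of 1 unannotated isoform, the only one listed for it. Kif2c had 1.12 and 0.18 FPKM at E18 and 0.46 and 0.49 FPKM by P5, and was listed at 0 in both Adult libraries.

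For the 6 that are in the table through E18 replicate 1 alone, a higher value there than in replicate 2 was fixed by that filter and is no finding. Without E18 replicate 1 the 7 low genes were at 2.54 FPKM at E18, inside the range of the P5 and Adult libraries together (1.53 to 3.16 FPKM). The cell cycle markers Mki67, Top2a and Ccnb1 were listed at 0 in the Adult, where the mitotic sum was as high as at E18 through Kif22 and Kif15. The log2 ratio of the mitotic sum was 0.46 in Adult against P5 (0.07 without Adult replicate 1), beside -0.94 for the axonal sum (-0.97 to -0.91 over all fits without 1 library). With TPM the mitotic ratio was -0.28 and the axonal ratio -1.69.

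**Figure D4:**
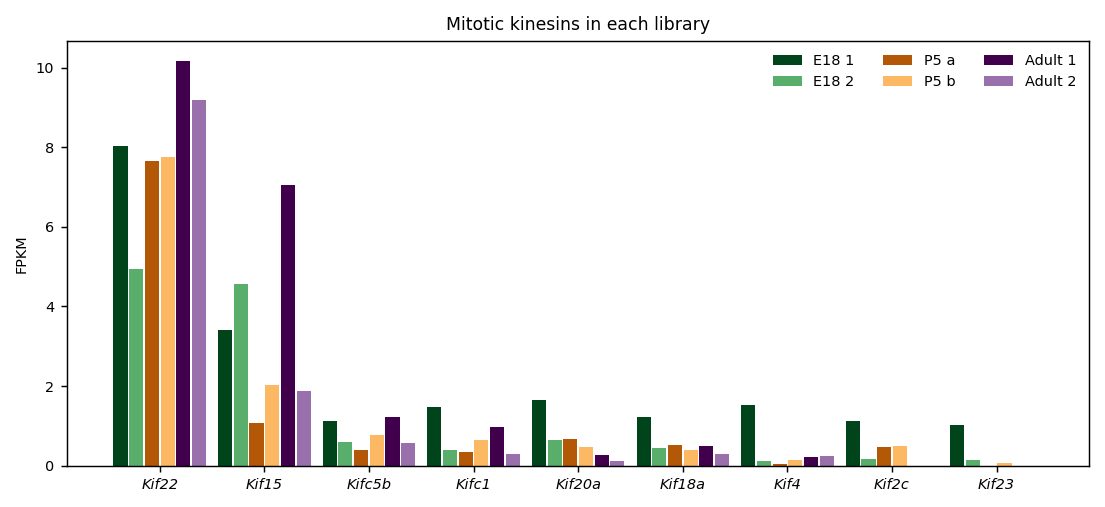
FPKM of the 9 mitotic kinesins in each of the 6 libraries, 1 bar per library, ordered by mean level. Kif22 and Kif15 stand above the rest, and the 7 low genes reach 1 FPKM in E18 replicate 1, at 1.01 (Kif23) to 1.65 FPKM (Kif20a).

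The remaining members act outside axonal cargo transport or have less settled roles. Kif21a and Kif21b are kinesins that restrain microtubule growth. Kif21a lay between 39.2 and 48.9 FPKM in all 6 libraries and was not called, at 0.20 in Adult against P5 and -0.54 there with TPM. Kif21b had 35.4 and 36.7 FPKM at E18, 18.3 and 23.4 by P5, and 16.9 and 8.92 FPKM in the Adult, a fall of 1.47 in Adult against E18 (SE 0.28, limma adjusted p = 0.0044). The share of Kif21a in the pair was 53.5 and 53.9% at E18, 70.4 and 62.6% by P5, and 74.3 and 83.9% in the Adult, without overlap between the ages. Kif26a and Kif26b, kinesin-like proteins without motor activity, fell by 2.34 and 1.63 in Adult against E18 (adjusted p = 0.0035 and 0.00077). Kif26a had 8.66 and 8.54 FPKM at E18, 2.09 and 7.04 by P5, and 0.97 and 0.82 FPKM in the Adult. Kif1bp, which is no kinesin but a protein that binds several of them, had 29.9 and 33.3 FPKM at E18, 37.9 and 33.9 by P5, and 48.3 and 49.9 FPKM in the Adult. It rose by 0.62 in Adult against E18 (SE 0.11, adjusted p = 0.0034), a value that was 0.02 with TPM. The microtubule depolymerase Kif2a and the minus-end motor Kifc2 were not called in any contrast, and Kif19a, a kinesin of cilia, was at or below 1.03 FPKM in all libraries and not tested.

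Dynein 2 returns cargo from the tip of the cilium. Its heavy chain Dync2h1 had 6.84 and 6.97 FPKM at E18, 7.14 and 7.72 by P5, and 17.1 and 16.6 FPKM in the Adult. It rose by 1.08 in Adult against P5 (SE 0.12, limma adjusted p = 0.00050), and the call held under all 4 scalings and in every fit without 1 library. Its partner Dync2li1 had 9.44 and 10.1 FPKM at E18, 11.1 and 6.85 by P5, and 5.63 and 5.81 FPKM in the Adult, and was not called against P5 (-0.54, adjusted p = 0.070).

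Of the 35 calls in Adult against E18, 26 held in every fit that left out 1 library, and of the 31 in Adult against P5 also 26. The 9 that were lost in Adult against E18 in at least 1 such fit were Dctn6, Dync1li2, Dync2li1, Dynlrb1, Dynlt1c, Kif17, Kif1b, Kif3b and Klc2. Their highest adjusted p in those fits was 0.0501 for Klc2, 0.066 for Dynlrb1 and 0.097 to 0.189 for the others. The 5 lost in Adult against P5 were Dynlt1c, Kif1bp, Kif26a, Kif26b and Klc4, with adjusted p of up to 0.055, 0.060, 0.130, 0.067 and 0.104 in that order.

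Several genes that fell as a whole did so in some of their isoforms only. Of 34941 isoforms tested, 43.3% were called in Adult against P5 (19.2% higher, 24.1% lower), and of the 160 tested isoforms of members 24 rose and 59 fell. In Adult against E18 44.7% of all isoforms were called (17.9% higher, 26.8% lower), and 27 member isoforms rose and 64 fell. In P5 against E18 1.63% of all isoforms were called (0.804% higher, 0.824% lower), and 3 member isoforms rose and 1 fell. Of all 7545 genes with 2 or more tested isoforms 14.7% had isoforms called in both directions in Adult against P5. Among the 36 such members, with a median of 3.5 tested isoforms beside 3 over all such genes, there were 10, namely Dctn6, Dynll2, Kif1a, Kif1b, Kif21b, Kif3a, Kif5b, Kifc2, Klc1 and Klc2. In Klc1 (chr12:111758849-111807844), an unannotated isoform of 2457 bases was listed at 0 in all E18 and P5 libraries and at 65.2 and 70.6 FPKM in the Adult. An annotated isoform of 2261 bases had 83.3 and 111 FPKM at E18 and 61.9 and 83.1 FPKM by P5, and was listed at 0 in both Adult libraries. The assembly decides how reads are divided between such overlapping isoforms, so a value of 0 can be a failed estimate.

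**Figure D5:**
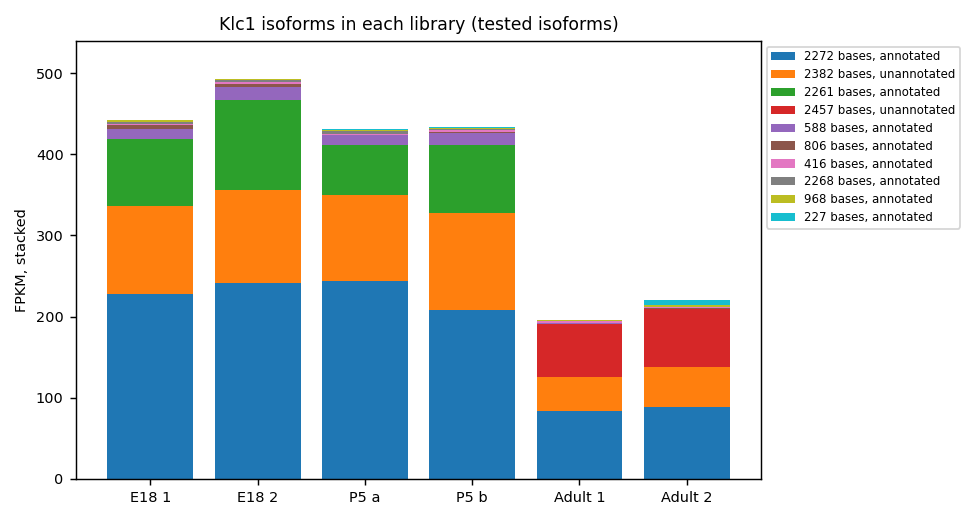
FPKM of the tested Klc1 isoforms, stacked per library, with the length of each and whether it is annotated. The 2457-base isoform appears in the Adult libraries only, and the 2261-base isoform in the E18 and P5 libraries only.

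Dynll2, level as a gene, exchanged annotated isoforms. Its 2187-base isoform had 27.1 and 24.0 FPKM at E18, 23.8 and 31.1 by P5, and 4.0 and 1.39 FPKM in the Adult, a fall of 3.03 against P5 (limma adjusted p = 0.0018). The 2476-base isoform had 20.8 and 19.0 FPKM at E18, 18.6 and 21.0 by P5, and 47.6 and 53.9 FPKM in the Adult, a rise of 1.32 (adjusted p = 0.0011). In Kif3a an isoform of 3233 bases was highest at P5. It had 0.62 and 1.33 FPKM at E18, 13.6 and 12.2 by P5, and 2.90 and 2.16 FPKM in the Adult. Its rise in P5 against E18 was 2.83 (adjusted p = 0.019), while Kif3a as a gene was not called in that contrast. In Kif1a an isoform of 6141 bases was at or near 0 at both younger ages and at 7.21 and 2.56 FPKM in the Adult, a rise of 2.43 against P5 (adjusted p = 0.0058). Among member isoforms 3 of 160 were listed at 0 before the Adult and reached 1 FPKM in both Adult libraries, and 6 of 160 did the reverse, beside 187 and 376 of all 34941.

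Partner genes outside the family were counted from lists by role. In Adult against P5, 26.2% of all genes tested were called higher and 33.7% lower. No test set the count of a list against these shares. Of 17 dynein regulators 15 were tested, and in that contrast 3 rose and 9 fell. The 9 included the dynactin subunits Actr1a, Actr10, Capza1, Capza2 and Capzb. The actin-related subunit Actr1b did not pass (-0.02, limma adjusted p = 0.875). All but Capza1 and Capza2 of these were named after their values were seen. Capza1, a capping protein, had 11.6 and 11.5 FPKM in the Adult against 34.0 and 28.1 FPKM at P5 (a fall of 1.35, limma adjusted p = 0.00027). Pafah1b1, the lissencephaly gene Lis1, had 101 and 110 FPKM in the Adult against 240 and 238 FPKM at P5 (a fall of 1.17, adjusted p = 0.00029), and Capza2 fell by 1.20 (adjusted p = 0.00037). In P5 against E18, where 10.5% of all genes were called, Ndel1 was the 1 regulator called. It rose there, and it was chosen after its values were seen.

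Of 19 kinesin adaptors, all tested, 7 rose and 7 fell in Adult against P5, beside 26.2% and 33.7% of all genes. Their median log2 change was 0.01, beside -0.07 over all genes. Hap1, a huntingtin-binding adaptor of kinesin and dynein, had 36.4 and 43.7 FPKM in the Adult against 5.58 and 11.7 FPKM at P5 (2.16, limma adjusted p = 0.0015). Snph, syntaphilin, which anchors axonal mitochondria, had 22.4 and 19.7 FPKM in the Adult against 7.23 and 8.55 FPKM at P5 (1.31, adjusted p = 0.00045). Map7, which recruits kinesin-1 to microtubules, had 68.0 and 57.0 FPKM in the Adult against 4.60 and 3.15 FPKM at P5 (3.71, adjusted p = 0.00076). Of 14 spindle partners 8 were tested, and 1 rose and 3 fell in Adult against P5, beside the same shares of all genes. Spc25, a kinetochore subunit, was the one that rose, at 53.2 and 48.4 FPKM in the Adult against 0.76 and 0.83 FPKM at P5 (4.85, adjusted p = 0.0015). Cdca8 and Prc1, which act in the chromosomal passenger complex and the central spindle, fell by 1.15 and 1.05 (adjusted p = 0.022 and 0.027). No spindle partner was called in P5 against E18, where 10.5% of all genes were.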

How the data were processed

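The authors' FPKM per isoform came from polyA libraries of 6 samples, read as pairs of 100 bases. HISAT2, Cufflinks, Cuffdiff and mm10 are named, with no version, per the submitters' processing notes. Both P5 columns have one header, hence the names P5 a and P5 b. A further 9 columns of the deposited table belong to no sample here and were not used. Depth is unknown. Isoform FPKM was summed per symbol, and 0.0001 was read as listed at 0. The main fit was limma 3.58.1 in R 4.3.3 (eBayes with trend, age only) on log2(FPKM + 1) of 14390 genes with a mean of at least 1 FPKM in 6 libraries, which understates changes of low genes, with Benjamini-Hochberg adjustment within a contrast. Isoforms were fitted likewise. Tested on simulated data over 14390 genes, the P5 against E18 fit recovered 50% of genes changed by 1 on the log2 scale. The simulation changed few genes, all above a minimum level, and used independent normal noise. It gave 137 calls, against 1507 in the data, so that share need not hold for the data. Coordinates are from GENCODE M21. Classes of up to 6 tested members were named in full, larger ones by the 6 highest means and 3 smallest p, members under the filter without a test, partner genes by the 3 smallest p in a list, and isoforms where calls ran both ways. Other isoforms and genes are described after their values were seen. The members and lists were chosen with earlier results of these data known. Alternatives were 3 scalings, a pseudocount of 0.1, no filter or 5 FPKM, no variance trend, 2 ages only, each library left out and a replicate block.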

Additional observations from a re-analysis of the deposited data

How the results depend on the processing

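With 2 libraries per age and no counts, precision is limited by the number of libraries. Leaving out 1 library gave 0 to 2 risen and 0 to 1 fallen members in P5 against E18, 5 to 6 and 23 to 25 in Adult against P5, and 5 to 6 and 21 to 29 in Adult against E18. For axonal genes the ranges were 0 to 2 and 0 to 1, 3 to 4 and 20 to 22, and 3 and 16 to 23, and for mitotic kinesins 0 to 1 risen in both Adult contrasts. Log2 ratios of axonal sums ranged over -0.052 to 0.081, -0.97 to -0.91 and -0.99 to -0.86, and of mitotic sums over -0.78 to -0.01, 0.07 to 0.77 and -0.38 to 0.45. Fitting 2 ages only left 1 risen member in P5 against E18, an axonal one. With TPM 3 members (2 axonal) rose and 39 fell in Adult against P5, and 3 rose in Adult against E18. In Adult against E18 13 members rose with protein-coding scaling (7 axonal, 1 mitotic) and 9 after quantile normalisation (5 axonal), and 1 mitotic kinesin, Kif20a, fell with no filter. The shares of all genes called in these alternative fits were not computed, so the counts stand without a background. With TPM the axonal sum ratio was 0.15 in P5 against E18, -1.69 in Adult against P5 and -1.55 in Adult against E18, and in the Adult contrasts -0.61 and -0.55 with protein-coding scaling and -0.62 and -0.55 after quantile normalisation. The mitotic ratios in the Adult contrasts were -0.28 and -0.60 with TPM, and -0.17 after quantile normalisation in Adult against E18. Of 147 member changes 37 turned sign under at least 1 scaling, and 11 turned values involved a call on either side, namely with TPM for Dynll2 (-0.58 against P5, -0.41 against E18), Dynlt3 (-0.70 against P5), Kif13b (-0.0025), Kif1bp (-0.30), Kif21a (-0.54, -0.42), Klc4 (-0.22) and Kif5b (-0.60 against E18), and for Dync1li2 against E18 with protein-coding (0.042) and quantile scaling (0.0011). The cause was not tested. A replicate block could be fitted for Adult against E18 only, since the P5 columns carry no number. It gave 5 risen and 26 fallen members, and lost Dctn6, Dynlt1c, Kif1b and Kif3b. Replicate differences of E18 and Adult correlated at 0.018 over genes. The labels tie these samples by number only. With 1 such difference per age, the correlation cannot decide whether they share more than that.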
